A study of Homo sapiens with 3 samples.

Results

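Replication origins were mapped by sequencing of short nascent strands, and 3 stretches of human chromosome 19 that are packed with zinc finger genes were examined in untreated HCT116 cells, an established human colorectal cancer line. They were chosen by fixed coordinates, as the hg19 intervals chr19:20000000-24600000, chr19:37000000-38600000 and chr19:52500000-58700000, and are called here the proximal, middle and distal clusters, in order from the short arm next to the centromere to the end of the long arm. A called feature belonged to a cluster when its midpoint fell inside. The clusters span 4.6, 1.6 and 6.2 Mb, and the remaining 43.6 Mb of the chromosome, up to its last call and without the call-free stretch around the centromere, served as the comparison and are called the rest.

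Cells were grown in RPMI medium at 37 °C with no treatment, and short nascent strands, the newly made DNA that forks leave around an origin, were purified with λ-exonuclease and sequenced (SNS-seq) in 3 replicates. All 3 samples form 1 group, so every comparison is between stretches of DNA within a replicate. Broad regions of enrichment called by EPIC2 and single-base summits called by MACS2 were deposited for each replicate. The lists hold calls without reads, so the sequencing depth behind a call or a gap is unknown.

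In replicates 1, 2 and 3, the clusters held 799, 269 and 468 EPIC2 regions of 6184, 2748 and 3867 on chromosome 19 and of 124492, 44482 and 78820 in all. They held 1360, 385 and 906 summits of 7916, 2919 and 4661 on the chromosome and of 218227, 63077 and 162176 in all. Replicate 1 gave the longest lists and replicate 2 the shortest, genome-wide as well as in the clusters. Values are therefore set against the rest of chromosome 19 within each replicate, and ratios are then averaged over replicates.

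KRAB zinc finger genes make the largest family of transcriptional repressors in mammals and arose by repeated tandem duplication, which is why they stand in long arrays of similar neighbours. A KRAB protein binds DNA through its row of zinc fingers, and its KRAB domain recruits TRIM28, which brings the histone methyltransferase SETDB1 and so places the repressive mark H3K9me3. Many of them silence transposable elements: ZNF91, of the array on the short arm, represses SVA retrotransposons, and ZNF417 and ZNF587, of the array near the end of the long arm, bind endogenous retroviruses of the HERV-K family. The arrays are themselves known to carry H3K9me3. Origins in human cells are marked by the origin recognition complex without a fixed DNA sequence, and their density is known to be highest in gene-rich, early-replicating DNA.

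Chromosome 19 is dense in such genes even outside the 3 clusters. In the gene order of the RefSeq table for GRCh38.p14, used here for names and neighbours only, 265 of its 1451 protein-coding genes had a zinc finger name. The longest unbroken run held 27 of them, from ZNF737 to ZNF681 with ZNF91 and ZNF43 among them. Runs of 24 genes from ZNF565 to ZNF793 and of 23 genes from ZNF772 to ZNF256 followed on the long arm. Other runs, of 24 genes from ZNF627 to ZNF791 and of 20 genes from ZNF283 to ZNF180, lie outside the chosen intervals, so the rest is not free of zinc finger genes. The calls are in hg19 and no annotation of that build was used, so no call below is tied to a single gene.

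The proximal cluster was the poorest in EPIC2 regions in every replicate. It held 103, 17 and 58 regions, or 22.4, 3.70 and 12.6 per Mb, where the rest held 124, 56.9 and 78.0 per Mb. Its density was 0.136 ± 0.0622 (SD, n = 3) of that in the rest. The middle cluster held 122, 24 and 83 regions, or 76.3, 15.0 and 51.9 per Mb, and the distal cluster 574, 228 and 327, or 92.6, 36.8 and 52.7 per Mb. Their densities were 0.515 ± 0.219 and 0.690 ± 0.0529 of the rest (SD, n = 3). All 3 clusters lay below the rest in all 3 replicates. The middle cluster was at 0.617, 0.264 and 0.665 of the rest, with the low value in replicate 2. The 3 values of the distal cluster, 0.749, 0.646 and 0.676, lay close together. The proximal ratio was 0.0672 when the same number of top-scoring regions was taken from each replicate and 0.0752 with the upper 50% of scores, and the middle ratio was 0.326 and 0.330.

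Set against each other, the clusters kept 1 order in all 3 replicates, proximal below middle below distal, although the middle and distal densities of replicate 3 were nearly equal. The step from middle to distal depends on the distal stretch from 54 to 56 Mb, described below. Without it, the distal density of replicate 3 was 39.0 per Mb, below the 51.9 of the middle cluster. The proximal density was 0.261 ± 0.0283 of the middle and 0.194 ± 0.0808 of the distal density, and the middle was 0.738 ± 0.297 of the distal (SD, n = 3). An exact sign-flip permutation test over 3 replicates cannot give a two-sided p below 0.25, and it gave 0.25 for each of these ratios and for each cluster's ratio to the rest. The replicates are triplicate experiments. Where all 3 agree in sign the test gives 0.25 whatever their spread, so it reflects that agreement only.

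**Figure D1:**
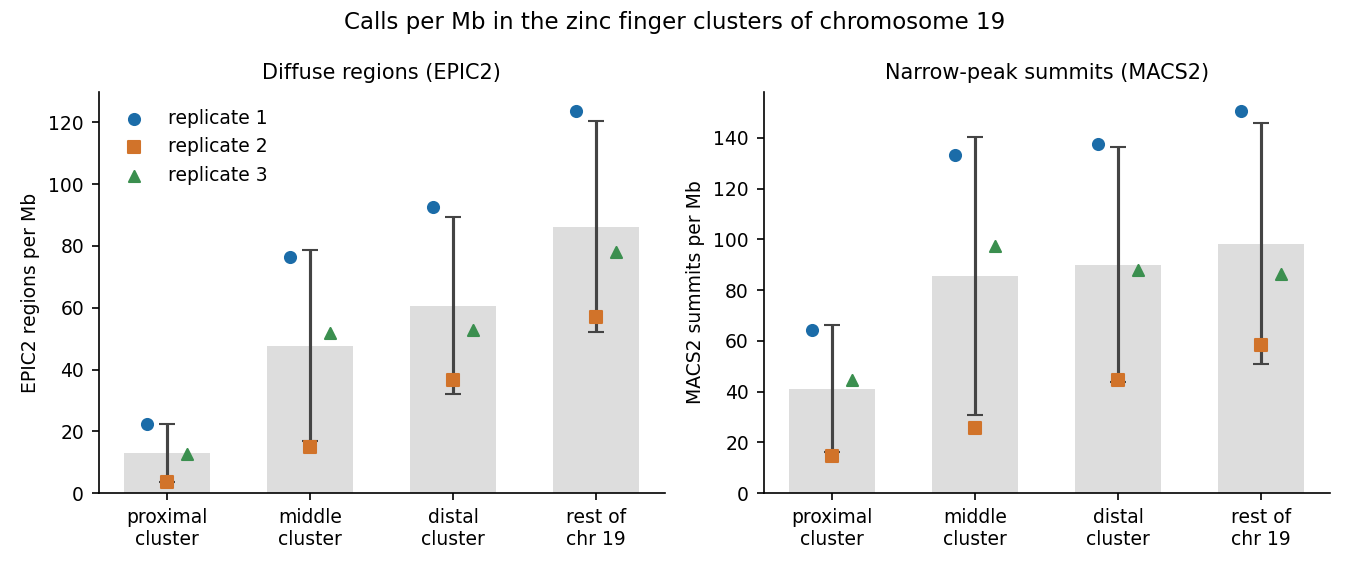
EPIC2 regions per Mb and MACS2 summits per Mb (vertical axes, from 0) in the proximal, middle and distal clusters and in the rest of chromosome 19, with 1 point per replicate, and with bars and whiskers for the mean ± SD over 3 replicates. EPIC2 density in the proximal cluster lay at 22.4, 3.70 and 12.6 per Mb against 124, 56.9 and 78.0 per Mb in the rest, while the summits of the middle and distal clusters overlapped those of the rest.

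The share of DNA inside EPIC2 regions fell further than their number. Regions covered 3.74, 1.04 and 4.40% of the proximal cluster, 15.5, 4.35 and 19.1% of the middle cluster and 24.2, 11.8 and 23.3% of the distal cluster in replicates 1, 2 and 3. In the rest they covered 41.8, 18.6 and 44.7%. The covered share was 0.0812 ± 0.0225 of that in the rest for the proximal, 0.344 ± 0.0999 for the middle and 0.578 ± 0.0565 for the distal cluster (SD, n = 3).

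MACS2 summits, which mark narrow peaks, drew a different picture. The proximal cluster held 295, 67 and 205 summits, or 64.1, 14.6 and 44.6 per Mb, against 150, 58.2 and 86.2 per Mb in the rest, a ratio of 0.398 ± 0.136 (SD, n = 3) that was below 1 in 3 of 3 replicates. In the middle cluster the 213, 41 and 156 summits gave 133, 25.6 and 97.5 per Mb, and the ratios to the rest were 0.885, 0.441 and 1.13. In the distal cluster the 852, 277 and 545 summits gave 137, 44.7 and 87.9 per Mb, with ratios of 0.913, 0.768 and 1.02. Replicate 3 thus had slightly more summits per Mb in the middle and distal clusters than in the rest, while replicates 1 and 2 had fewer. A difference from the rest was not shown for these clusters, because its sign was not the same in all 3 replicates. Mean ratios were 0.819 ± 0.350 and 0.900 ± 0.126 (SD, n = 3), with exact sign-flip permutation p-values of 0.75 and 0.5. With 3 replicates that test cannot fall below 0.25, so it decides nothing here.

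The balance of the 2 callers thus differed in the clusters. For each EPIC2 region there were 2.86, 3.94 and 3.53 summits in the proximal cluster, 1.75, 1.71 and 1.88 in the middle and 1.48, 1.21 and 1.67 in the distal cluster, against 1.22, 1.02 and 1.10 in the rest. The ratio to the rest was 3.14 ± 0.754 for the proximal, 1.60 ± 0.146 for the middle and 1.31 ± 0.177 for the distal cluster (SD, n = 3), above 1 in all 3 replicates in each.

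Most proximal summits had no broad region around them. Of the 295, 67 and 205 proximal summits, 41.4, 28.4 and 25.4% lay inside an EPIC2 region of their own replicate. Over all chromosomes with EPIC2 regions the share was 57.5, 44.2 and 43.7%, and in the rest of chromosome 19 it was 87.4, 72.8 and 77.0%. The middle cluster had 56.8, 39.0 and 41.7% and the distal cluster 72.3, 65.0 and 52.8%. The proximal share was thus below the genome-wide share in each replicate and the distal share above it, and the middle share lay slightly below it. Against the rest of chromosome 19 the differences were −47.4 ± 3.75, −33.2 ± 2.43 and −15.7 ± 8.16 percentage points for the proximal, middle and distal clusters (SD, n = 3).

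These shares move with how much DNA the regions cover. Divided by the covered share, summits fell into their own EPIC2 regions 11.1, 27.3 and 5.76 times as often as their coverage in the proximal cluster, 3.67, 8.97 and 2.2 times in the middle, 2.98, 5.51 and 2.27 times in the distal cluster and 2.09, 3.91 and 1.72 times in the rest. Summits and regions of the proximal cluster therefore coincided far above their coverage, although most summits stood alone. On that scale the proximal cluster was the highest of the 4 stretches in each replicate. The highest value possible is lower where coverage is higher, so no other stretch could have reached the proximal values. That ranking is thus not separate from coverage.

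Read from the side of the regions, the proximal cluster was not below the rest. An own summit was present in 94 of 103 (91.3%, 95% Wilson interval 84.2 to 95.3%), 14 of 17 (82.4%) and 41 of 58 (70.7%) proximal EPIC2 regions. The share over all chromosomes was 81.7, 56.8 and 71.7%, and in the rest it was 74.1, 63.4 and 64.3%. The proximal share exceeded that of the rest by 14.2 ± 6.81 percentage points (SD, n = 3), above it in all 3 replicates, although in replicate 3 it lay slightly below the genome-wide share, and the distal share by 4.49 ± 2.11 points. The middle cluster, with 77.0, 62.5 and 67.5%, differed by 1.75 ± 2.3 points, within the spread of the replicates. Wilson intervals cover counting error only.

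EPIC2 regions of the clusters tended to be narrower than those of the rest. The median width was 1600, 2800 and 3100 bases in the proximal cluster, 1600, 2800 and 3200 in the middle and 2000, 2800 and 3600 in the distal cluster, against 2600, 3000 and 4400 in the rest. Relative to the rest these are 0.751 ± 0.164, 0.759 ± 0.161 and 0.840 ± 0.0842 (SD, n = 3), below 1 in each replicate. In replicate 2 the gap was a single step of 200 bases, the grid on which EPIC2 sets its borders. On the other autosomes the median width was 1600, 2800 and 3400 bases. Relative to those, the mean ratio was 0.971, 0.980 and 1.10 from proximal to distal. The narrowness is thus a difference from the rest of chromosome 19.

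The long regions were rare in the clusters. The widest proximal region measured 5000, 5800 and 8400 bases in replicates 1, 2 and 3, and no proximal region of any replicate reached 10 kb. In the middle cluster 0, 0 and 2 regions did, and in the distal cluster 12, 4 and 19, or 2.09, 1.75 and 5.81% of its regions. In the rest 191, 22 and 434 regions did, or 3.55, 0.887 and 12.8%. The distal cluster was below the rest in replicates 1 and 3 and above it in replicate 2, where 4 regions make up the count. Its widest regions were chr19:55827001-55853800 in replicate 1 and chr19:55828801-55855800 in replicate 3, of 26800 and 27000 bases. They overlap, and each holds 4 summits of its own replicate.

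Neighbouring EPIC2 regions lay farther apart in the clusters. The median gap in the proximal cluster was 16000, 201900 and 25800 bases, where the rest had 2000, 6000 and 2600. The ratio was 8, 33.65 and 9.92, so its mean of 17.2 ± 14.3 (SD, n = 3) rests on replicate 2, whose 17 proximal regions gave the largest value, and it was 8.96 without that replicate. In the middle cluster the median gap was 6000, 42800 and 8800 bases, 4.51 ± 2.28 times the rest, and in the distal cluster 3800, 9000 and 5700 bases, 1.86 ± 0.348 times the rest (SD, n = 3). Gaps were longer than in the rest in all 3 replicates for each cluster. The longest gap inside the proximal cluster was 297200, 1217800 and 761000 bases.

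The spacing of summits differed less from the rest than that of EPIC2 regions. Their median gap was 9050, 47949 and 12110 bases in the proximal cluster, which is 2.54 ± 1.62 times the rest. In the distal cluster it was 1.08 ± 0.0465 times the rest, the nearest to 1 of the spacing ratios. The middle cluster had 1.50 ± 0.858 (SD, n = 3), with 1.09, 2.49 and 0.929 in replicates 1, 2 and 3, so the direction was not the same in all.

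**Figure D2:**
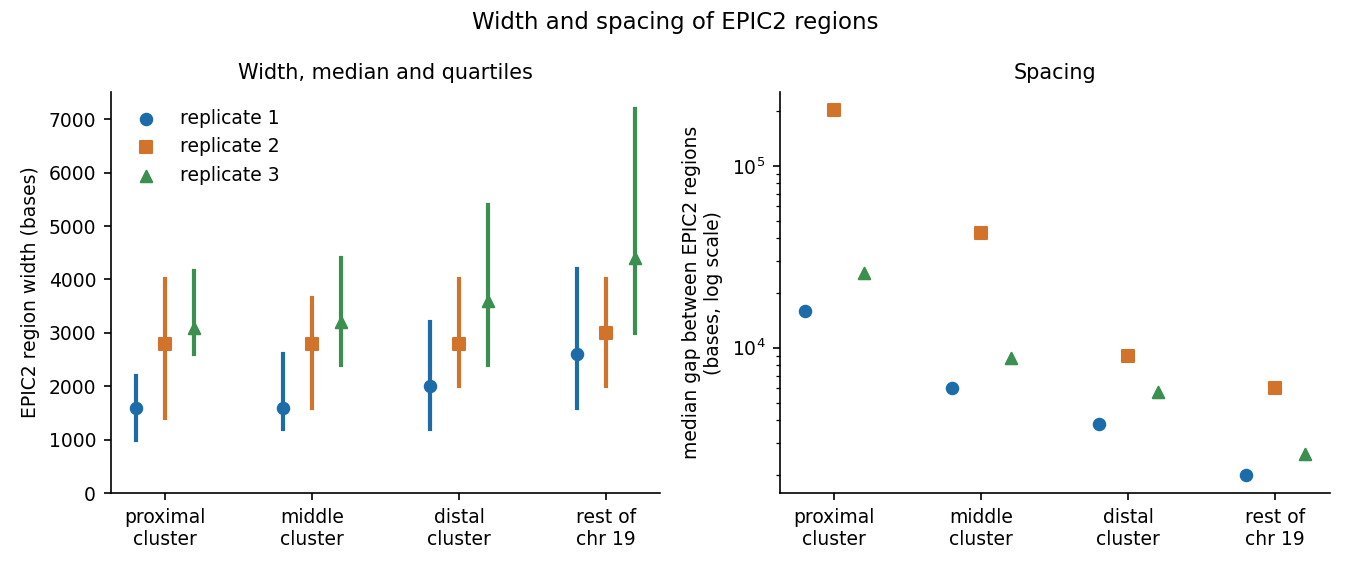
Width of EPIC2 regions in bases on a linear axis (left; point, median; line, quartiles) and median gap between neighbouring EPIC2 regions in bases on a logarithmic axis (right) in the 3 clusters and the rest of chromosome 19, by replicate. Median widths stay within 1600 to 4400 bases, while the median gap ranges from 2000 bases in the rest to 201900 bases in the proximal cluster of replicate 2.

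The proximal cluster was sparse along most of its length rather than at 1 place. Of its 46 windows of 100 kb, 12, 32 and 22 held no EPIC2 region (26.1, 69.6 and 47.8%), and 10, 24 and 18 of the 46 held a summit without a region. In the rest 3.70, 9.03 and 9.26% of 432 windows were empty of regions. The middle cluster had 0, 3 and 0 such windows of 16 and the distal cluster 0, 8 and 2 of 62. When chromosome 19 was cut into 56 windows of 1 Mb, all 5 windows in the proximal cluster were among the 10 with the fewest EPIC2 regions in each of the 3 replicates. The last of them reaches past the cluster into the call-free stretch, which lowers its count, and the other 4 lie wholly inside the cluster. The rest supplied 5, 4 and 5 of those 10 windows in replicates 1, 2 and 3 and the middle cluster 1 in replicate 2, while no distal window was among them. Those of the rest began at 28, 29, 31, 32 and 43 Mb, without the one at 29 Mb in replicate 2. All but the last lie just past the call-free stretch. In replicate 3 the windows from 28, 29 and 31 Mb held 3, 5 and 4 regions, fewer than any proximal window (6 to 24). In replicate 2 the rest had at least 8 per window and the proximal cluster at most 5.

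The longest stretch of the proximal cluster without an EPIC2 region in any replicate was chr19:20662601-20959400, of 296800 bases, with 2 summits of replicate 1 and none of the others. Within it, chr19:20662601-20781257 held no call of either kind. The densest 100 kb of the cluster, from chr19:21200000 on, held 5, 0 and 8 regions. In replicate 3 that is 80 per Mb, slightly above the 78.0 per Mb of the rest. In the middle cluster the longest stretch without a region was chr19:37737601-37824600, of 87000 bases, and it still held 2, 1 and 4 summits. The distal cluster held the longest stretch free of any call among the 3 clusters, chr19:55228001-55380849 with 152849 bases. That stretch lies between 54 and 56 Mb, in the part of the distal interval that is otherwise the richest in regions.

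**Figure D3:**
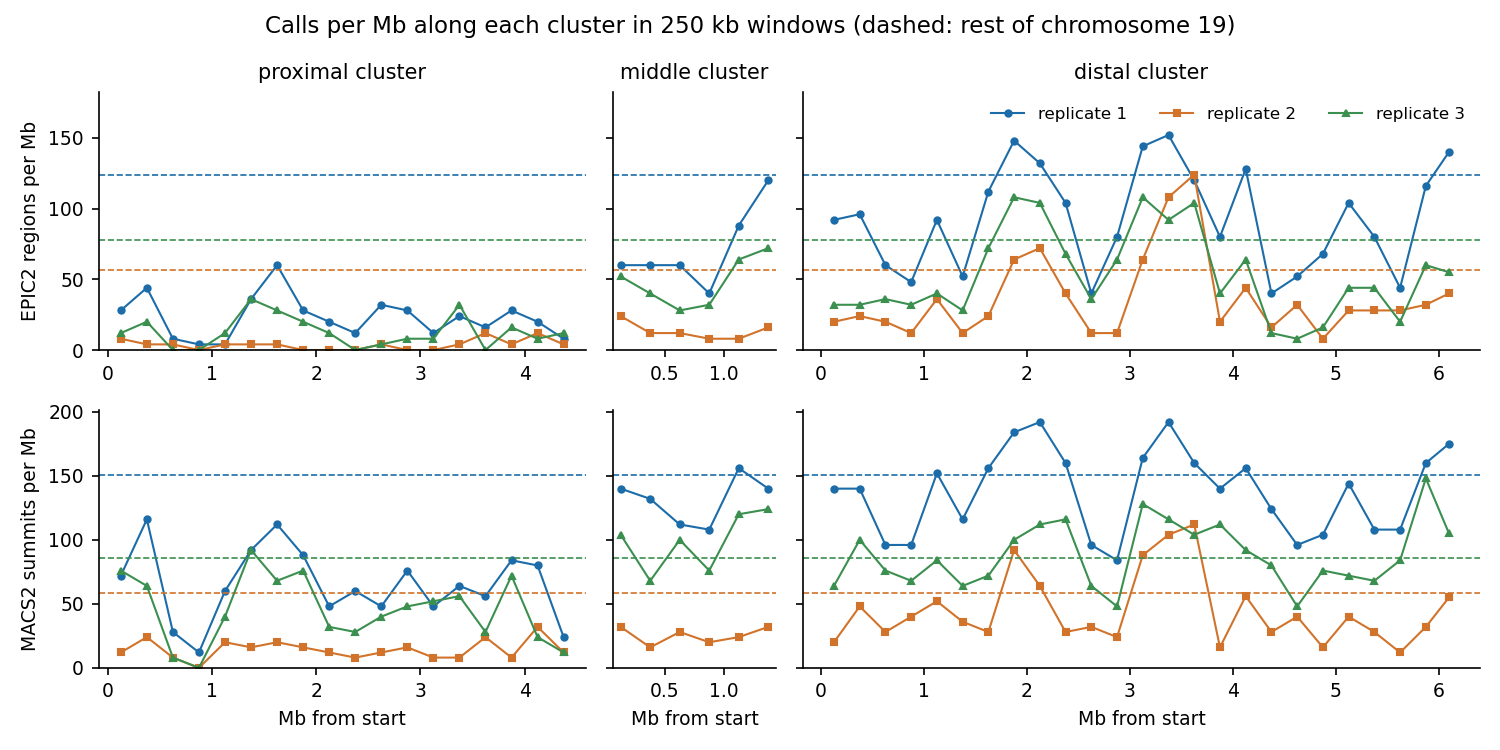
EPIC2 regions per Mb (upper row) and MACS2 summits per Mb (lower row) in windows of 250 kb, against the distance in Mb from the start of the proximal, middle and distal clusters, with 1 line per replicate and its value over the rest of chromosome 19 as a dashed line of the same colour. Every EPIC2 window of the proximal cluster lies below the dashed line of its replicate, the middle cluster rises towards its end in replicates 1 and 3, and the distal cluster crosses its dashed lines in a few windows.

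EPIC2 regions became fewer at the start of the proximal cluster, while its end adjoins the call-free stretch and was not compared. The 0.5 Mb before its start held 63, 16 and 47 regions and the 0.5 Mb after it 18, 3 and 8. At the start of the middle cluster the counts went from 59, 19 and 41 outside to 30, 9 and 23 inside. At its end they were 63, 9 and 40 inside and 86, 48 and 54 outside, and its densest 100 kb was the last of its windows, with 15, 4 and 11 regions. At the start of the distal cluster the counts rose in replicate 1, from 32 outside to 47 inside, and fell from 17 to 11 and from 19 to 16 in replicates 2 and 3.

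The distal interval is not uniform in gene content. Between 54 and 56 Mb it is known to hold other gene families, among them the LILR and KIR genes of immune receptors, in place of long zinc finger arrays. Where these families lie within the stretch was not examined, so neither its dense nor its sparse windows are tied to them. That stretch had 114, 49.5 and 81.5 EPIC2 regions per Mb, and the remainder of the distal cluster 82.4, 30.7 and 39.0, a ratio of 1.69 ± 0.359 (SD, n = 3). Against the rest of chromosome 19 the stretch reached 0.946 ± 0.0896 and the remainder 0.569 ± 0.0867. Its regions were also 1.25 ± 0.0797 times as wide and its gaps 0.371 ± 0.0992 times as long as in the remainder. Without it, the distal value lies near the 0.515 of the middle cluster, and in replicate 3 the distal density was below that of the middle cluster. The stretch itself was uneven, with dense windows on either side of a sparse centre. The 250 kb from chr19:54250000 on held 37, 16 and 27 EPIC2 regions and those from chr19:55750000 on held 38, 27 and 23, whereas the window from chr19:55000000 on, between them, held 10, 3 and 9. High counts ran on past 56 Mb for 1 more window, with 30, 31 and 26 regions, and then dropped to 20, 5 and 10.

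The scores of the calls were lower in the clusters for EPIC2 in most replicates. A region's score was turned into a percentile among the regions of its replicate on chromosome 19. The median percentile was 23.2, 52.7 and 15.1 in the proximal cluster, 32.4, 35.0 and 26.2 in the middle and 40.4, 47.2 and 33.4 in the distal cluster, against 52.6, 50.5 and 52.8 in the rest. The middle and distal clusters were lower than the rest in 3 of 3 replicates. The proximal cluster was lower in replicates 1 and 3, and in replicate 2, with 17 regions, it was slightly higher. Summit scores differed less, by −10.1 ± 9.79, −10.8 ± 17.3 and −3.83 ± 4.91 percentile points from the rest for the proximal, middle and distal clusters (SD, n = 3), and the sign was not the same in all replicates.

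Far fewer proximal regions were found again in another replicate. An overlap of at least 1 base with an EPIC2 region of either other replicate was found for 35 of 103 regions of replicate 1 (34.0%, 95% Wilson interval 25.6 to 43.6%), 7 of 17 of replicate 2 (41.2%, 21.6 to 64.0%) and 28 of 58 of replicate 3 (48.3%, 35.9 to 60.8%). Over all chromosomes 61.4, 82 and 70.5% of regions were shared in this way, and in the rest 84.3, 95.7 and 90.7%. The middle cluster, with 61, 19 and 54 shared regions, reached 50, 79.2 and 65.1%. The distal cluster, with 376, 212 and 256, reached 65.5, 93.0 and 78.3%. The distal share was above the genome-wide share in all 3 replicates, the middle share below it in all 3, and the proximal share below it by a wide margin. Relative to the rest the differences were −49.1 ± 6.17, −25.5 ± 8.89 and −11.3 ± 8.10 percentage points for the proximal, middle and distal clusters (SD, n = 3), and each was negative in all 3 replicates. When a reciprocal overlap of 50% was asked for, they were −24.2 ± 7.18, −12.0 ± 6.73 and 0.177 ± 5.08 points (SD, n = 3). The distal difference then lay within the spread of the replicates.

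Sharing, too, moves with coverage. Regions of the other replicates covered 5.37, 7.04 and 4.50% of the proximal cluster, 21.6, 28 and 18.0% of the middle and 29.8, 34.5 and 28.1% of the distal cluster, against 51.1, 57.3 and 46.2% of the rest. Summits of 1 replicate fell into the EPIC2 regions of another 3.9 ± 1.91 times as often as coverage alone in the proximal cluster, 2.26 ± 0.802 times in the middle, 2.02 ± 0.672 times in the distal cluster and 1.60 ± 0.383 times in the rest (SD over the 6 directed pairs of replicates). The order of the stretches on that scale is opposite to the order of the plain shares. Here, too, the highest value possible is lower where coverage is higher, so this order is not separate from coverage.

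Replicates 1 and 3 accounted for most of the shared proximal regions. Of the 103 proximal regions of replicate 1, 30 overlapped replicate 3 and 6 overlapped replicate 2. Of the 58 regions of replicate 3, 27 overlapped replicate 1 and 2 overlapped replicate 2. The only place in the proximal cluster where EPIC2 regions of all 3 replicates overlapped in 1 merged region was chr19:23252201-23255400. The middle cluster had 15 such merged regions, the distal cluster 104 and the rest 1254, or 0.217, 9.37, 16.8 and 28.8 per Mb from proximal to rest.

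Summits told less of a difference between stretches. A summit of another replicate lay within 250 bases of 82 of 295 (27.8%), 34 of 67 (50.7%) and 59 of 205 (28.8%) proximal summits. Genome-wide the shares were 30.9, 55.3 and 28.1%, and in the rest 32.2, 59.1 and 24.9%. The proximal cluster was below the rest in replicates 1 and 2 and above it in replicate 3. The differences from the rest were −2.95 ± 6.25, −0.445 ± 4.76 and 2.37 ± 1.59 percentage points for the proximal, middle and distal clusters (SD, n = 3). The first and second lie within the spread of the replicates, and the distal share was above that of the rest in 3 of 3 replicates.

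The same proximal shares came from a sparser field of summits. In the proximal cluster 2.89, 4.95 and 3.64% of bases lay within 250 bases of a summit of another replicate, and in the rest 6.98, 10.97 and 8.97%. Proximal summits matched 9.62, 10.3 and 7.90 times as often as that share, a mean of 9.26 ± 1.22, against 4.26 ± 1.34 in the rest, 4.66 ± 1.04 in the middle and 4.90 ± 1.28 in the distal cluster (SD, n = 3). The proximal values lay above those of the rest in all 3 replicates. On this scale, too, the highest value possible is lower where more bases lie near a summit of another replicate. The higher proximal values are thus not separate from the lower summit density. Proximal summits outside any EPIC2 region of their replicate matched in 23.7, 56.3 and 26.1% of cases, and those of the rest in 24.8, 47.2 and 25.2%. In the proximal cluster, then, summits without a broad region had partners in another replicate about as often as such summits did in the rest.

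**Figure D4:**
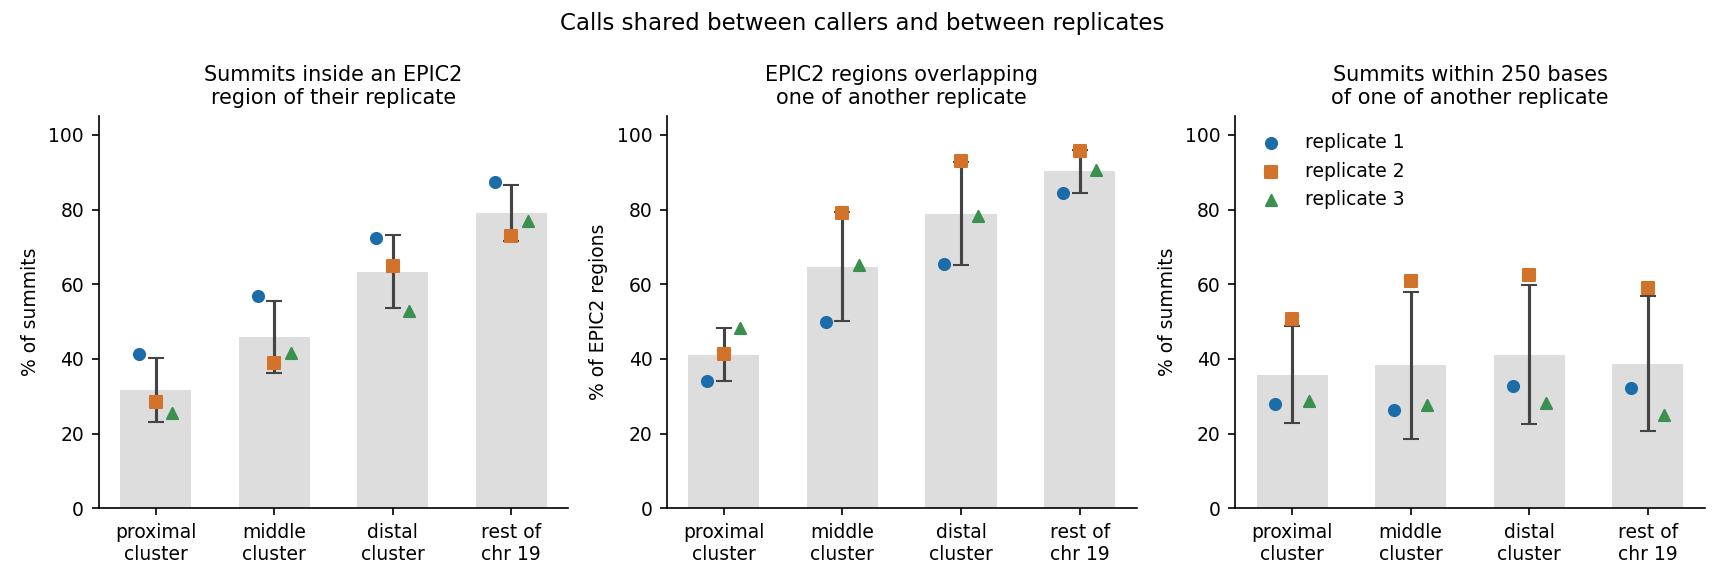
Percent of summits inside an EPIC2 region of their own replicate, percent of EPIC2 regions overlapping one of another replicate and percent of summits within 250 bases of one of another replicate (vertical axes) in the 3 clusters and the rest of chromosome 19, with 1 point per replicate, and with bars and whiskers for the mean ± SD. Sharing of regions falls from the rest (84.3, 95.7 and 90.7%) to the proximal cluster (34.0, 41.2 and 48.3%), while summit matching overlaps between all stretches.

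A few summits coincided in all 3 replicates. In the proximal cluster 3 summits of replicate 1 had a summit of each other replicate within 250 bases, at positions 23027615, 23480602 and 24187341 of the chromosome, and 2 of these sets lay in no EPIC2 region of any replicate. The set at 24187341 had partners at 24187329 and 24187518, and its MACS2 scores, −log10 of the q-value, were 4.83, 4.67 and 3.78 in replicates 1, 2 and 3. The middle cluster had 8 such sets and the distal cluster 23, or 5 and 3.71 per Mb against 0.652 in the proximal cluster. The rest had 176, or 4.04 per Mb, so the distal value lay near that of the rest and the proximal value below it. The tightest set of the middle cluster, at 38334175, 38334183 and 38334182, spanned 8 bases. The tightest of the distal cluster, at 57492926, 57492920 and 57492927, spanned 7 bases.

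Consensus origins were then formed from EPIC2 regions with at least 1 summit of their own replicate, merged where they overlapped and kept when at least 2 replicates contributed. Of 126 merged regions in the proximal cluster 22 were kept (17.5%), of 124 in the middle 30 (24.2%), of 497 in the distal cluster 209 (42.1%) and of 3700 in the rest 1972 (53.3%). Over all chromosomes the share was 34.5%. The clusters thus held 4.78, 18.8 and 33.7 consensus origins per Mb from proximal to distal against 45.3 in the rest, or 0.106, 0.414 and 0.745 of it. These counts join the replicates and have no replicate error of their own.

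The kept origins of the clusters were also narrower and farther apart. Their median width was 3900, 3800 and 4400 bases in the proximal, middle and distal clusters and 6600 in the rest. The median gap between neighbours was 110000, 27200 and 10500 bases from proximal to distal, and 5000 in the rest. Within the origins, the highest summits of the contributing replicates lay within 250 bases of each other in 7 of 22, 9 of 30 and 72 of 209 cases, or 31.8, 30 and 34.4%. The share was not computed for the rest, so it is not known to be particular to the clusters.

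No proximal consensus origin was held by all 3 replicates. With a limit of 3 counts, a count of 0 among 22 allows a share of up to 13.6%, or 0.652 per Mb. The rest held 704, or 16.2 per Mb, which is 24.8-fold above that limit. The limit treats origins as independent counts, takes the value of the rest as exact and holds no replicate error. The count of 0 also leans on replicate 2, where only 14 of 17 proximal regions had an own summit and could enter. Replicates 1 and 3 made 20 of the 22, and replicates 1 and 2 the other 2. The middle cluster had 7 origins in all 3 replicates and the distal cluster 54. In the middle cluster, too, replicates 1 and 3 alone made most origins, 20 of 30, and in the distal cluster 89 of 209. Replicate 2, with the shortest lists, took part in 2 of 22 proximal, 10 of 30 middle and 120 of 209 distal origins. In the rest it took part in 1158 of 1972.

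The strongest origins held by all 3 replicates were named, 2 per cluster, by the mean percentile of their highest summit score. In the middle cluster they were chr19:38571201-38577400, with top MACS2 scores of 12.6, 7.66 and 3.94 in replicates 1, 2 and 3, and chr19:37204001-37206200, with 13.6, 5.75 and 3.75. The first lies in the dense last window of the cluster, and the second near its start. In both, the highest summits of replicates 1 and 2 fell almost together, at 38574356 and 38574341 and at 37204238 and 37204240, while that of replicate 3 lay farther off, at 38576546 and at 37205175. In the first origin replicate 3 also had a lower summit at 38574472, with a score of 3.43. The 3 replicates thus coincided there within 131 bases.

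In the distal cluster the named origins were chr19:56081201-56122000 and chr19:54269401-54274200. The first spans 40800 bases, with 6, 5 and 8 summits and top scores of 22.7, 62.5 and 6.61. It joins 4, 7 and 3 EPIC2 regions of replicates 1, 2 and 3. Its highest summits, at 56089549, 56110503 and 56091013, lie across 20954 bases, so the replicates do not share 1 strongest position. They do share a position within the origin. Summits at 56091019, 56090980 and 56091013, with scores of 6.97, 37.8 and 6.61, lay within 39 bases of each other. The second is compact, with scores of 18.7, 14.2 and 11.6 and highest summits at 54271949, 54271861 and 54271427, a range of 522 bases. It lies in the first of the dense windows between 54 and 56 Mb, and the 40800-base origin begins just past 56 Mb, in the last dense window.

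Chromosome 19 is itself rich in calls, which bears on every ratio above. Among 2667 windows of 1 Mb on the other autosomes, the median held 29, 10 and 17 EPIC2 regions in replicates 1, 2 and 3. The proximal cluster, at 22.4, 3.70 and 12.6 per Mb, exceeded 41.9, 22.3 and 43.5% of those windows. The middle cluster exceeded 79.8, 64.6 and 80.1% and the distal cluster 85.3, 90.0 and 80.7%, while the rest exceeded 93.5, 95.8 and 90.9%. The density relative to the other autosomes was 0.398 ± 0.142 for the proximal, 1.51 ± 0.480 for the middle and 2.11 ± 0.242 for the distal cluster (SD, n = 3). The proximal cluster was thus below both the rest and the other autosomes in all 3 replicates. The distal cluster was below the rest and above the other autosomes in all 3, and the middle cluster was above the other autosomes in replicates 1 and 3 and slightly below them in replicate 2, at 0.963.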

How the data were processed

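SNS-seq of 3 replicates of untreated HCT116 cells was analysed from the authors' call lists. Per the paper's methods and the submitters' processing notes, reads were aligned by the authors with Bowtie2 2.3.4.2 (build hg19), cleared of duplicates with Picard 2.18.17, and called in each replicate by itself with MACS2 2.1.0.20151222 at a q-value of 0.1 and with EPIC2 at a false discovery rate of 0.1. The deposited EPIC2 lists give a score per region, which served only for ranks within a replicate because its kind is unknown here. The values in the deposited MACS2 lists were taken to be −log10 q-values. How reads with several matches were treated, and against which control, was not given in the sources used here.

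Calls were assigned by midpoint with Python 3.11.15, numpy 2.4.6 and scipy 1.17.1, and figures were drawn with matplotlib 3.10.9. Widths count both end bases, and gaps run between neighbours of 1 replicate. The rest excludes the clusters and the longest call-free stretch, chr19:24582750-27731800 (3.15 Mb). Shares have 95% Wilson intervals, and a count of 0 was given a limit of 3 counts. Ratios to the rest were taken within replicates and tested with the exact two-sided sign-flip permutation test. Among origins held by all 3 replicates, the 2 per cluster whose top summits ranked highest on average were named, and other named positions were the extremes of a stated quantity. All 15 quantities tested on simulated regions were recovered.

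The last call, at 59095400, lies past the end of chromosome 19 in the GRCh38 reference (58617616), so no reference coordinate or sequence was used, and the RefSeq table gave names and order only. The clusters and lists were chosen with earlier results of these data known. Alternatives covered the comparator, borders, score cuts, overlap rule, unit and left-out replicates.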

Additional observations from a re-analysis of the deposited data

How the results depend on the processing

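Of 171 values under alternative settings for 18 results, 132 kept their direction and stayed within 1 SD of the replicates, 27 moved by more than that without turning, and 12 turned. The comparator changed most values: against the other autosomes, EPIC2 density was 2.11 for the distal, 1.51 for the middle and 0.398 for the proximal cluster, coverage 2.39, 1.43 and 0.338, summit density 1.76, 1.51 and 0.746, width 1.10, 0.980 and 0.971, spacing 0.733 (distal) and 1.75 (middle), and the difference in sharing 8.41, −5.78 and −29.4 percentage points. So the distal cluster turned in every measure, and the middle in density, coverage and summits. Against flanks of 2 Mb, the distal values were 0.683 for coverage, 1.34 for spacing and 0.928 for width. With the upper 50% of EPIC2 scores, coverage was 0.513, 0.230 and 0.0506 for the distal, middle and proximal clusters, density 0.571, 0.330 and 0.0752, and proximal sharing −56.8 points. Without 54 to 56 Mb, distal coverage was 0.415, density 0.569 and spacing 3.22.

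Sharing depended on its definition. With a reciprocal overlap of 50% the differences from the rest were 0.177, −12.0 and −24.2 percentage points for the distal, middle and proximal clusters, and with summits within 250 bases 2.37, −0.445 and −2.95. Leaving out each replicate gave −20.0 to −5.57 points for the distal cluster, the lowest without replicate 2 and the highest without replicate 3, and −57.2 to −45.1 for the proximal cluster, the lowest without replicate 1. Summit density of the middle cluster ranged from 0.663 to 1.01 and turned without replicate 2, and proximal spacing fell from 17.2 to 8.96 without it. Settings chosen after seeing the data were equal numbers of regions per replicate (44482), under which density was 0.573 for the distal, 0.326 for the middle and 0.0672 for the proximal cluster, and regions of 1000 to 3000 bases, where sharing still differed by −49.3, −24.5 and −12.2 points from proximal to distal. The cause of these shifts was not tested. No paired analysis was possible because all 3 replicates form 1 group, with no second group to pair; stretches were compared within each replicate throughout. The lists carry no depth, so an empty stretch cannot be told from one without enough reads, and the 17 proximal regions of replicate 2 limit every proximal value of that replicate.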
